A study of Mus musculus with 20 samples.

Results

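Messenger RNA levels of 10 genes of the NF-kB system were followed across the tumors of a 4-vector gene transfer study. The genes were chosen by symbol, with earlier results of these data known. They were the cytokines Tnf, Il6 and Osm and the enzyme Ptgs2. The others were the inhibitors and regulators Nfkbia, Nfkbiz and Tnfaip3, and the transcription factor subunits Nfkb1, Nfkb2 and Relb. Of these 10 genes, 9 were measured by a probe set with a single gene symbol, among 19938 such genes on the array. No probe set was paired with Nfkb1 alone in the annotation used, and Nfkb1 was not analysed here. Each of the 9 genes had 1 such probe set, so no choice among probe sets entered their values.

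NF-kB factors are dimers that wait in the cytoplasm bound to inhibitors of the IkB family. Tumor necrosis factor (Tnf), interleukin 1 and microbial products activate kinases that destroy the inhibitor, and the freed dimers enter the nucleus and switch on cytokines, chemokines and survival genes. Among the genes they switch on are their own brakes, Nfkbia and Tnfaip3, so the transcripts of these brakes are widely used as a readout of recent pathway activity. In tumors the system is active in macrophages, neutrophils, stromal cells and many carcinoma cells.

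The tumors were implants of LLC-1, a Lewis lung carcinoma line of mouse, in C57Bl/6 hosts, which keep their own immune cells. All groups received adenoviral vectors by injection into the tumor, 5 times at 48 h intervals, each time in 25 µl of PBS; the viral load is given as a log10 value of 8, without a unit. The vector carried eGFP, a fluorescent reporter that served as control, or IFNbeta, a type I interferon, or p19Arf, the tumor suppressor of the Cdkn2a locus that restrains Mdm2, or the last group received p19Arf with IFNbeta together. Each of the 4 groups had 5 Affymetrix arrays, so the design holds both single genes, their combination and a control vector. The sources used here do not give the promoter of the vectors, the age of the mice or whether each array was a separate animal. The p-values therefore measure the spread between these arrays, which may in part be technical.

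The values were deposited log2 expression values, with array medians between 7.49 and 7.61. The standard deviation over genes within an array, called the array SD here, ran from 1.99 to 2.15. Macrophage markers were high in all 20 arrays, Cd68 between 10.26 and 11.66, Csf1r between 10.19 and 11.13 and Adgre1 between 9.58 and 10.93. Epithelial and lung markers lay near or below the array medians, Krt8 between 7.42 and 8.15, Krt18 between 6.66 and 7.58, Krt7 between 7.04 and 7.69, Sftpc between 5.74 and 6.87 and Nkx2-1 between 6.39 and 7.55. Thus the arrays gave no clear signal of lung epithelium, and the table carries no detection call. The probe sets of the injected genes' mouse loci had group means of 6.00 to 6.21 for Ifnb1 and 7.38 to 7.58 for Cdkn2a, with ranges that overlapped between groups; whether these probes cover the vectors' inserts is not stated in the labels, so they do not check the groups. In bulk tumors, fewer cells of a type and less RNA per cell cannot be told apart, which applies to every value below.

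The promoters of these genes were searched for NF-kB type sequences. RefSeq windows of 300 bases on GRCm38.p6, 250 before to 50 after the annotated start, were given for 6 of the 10 genes: Ptgs2, Il6, Tnfaip3, Nfkbia, Tnf and Nfkb2. The motifs were GGNNTTTCC and GGNNTTCCC, read on both strands, and 1 stretch can match both. Either motif was present in 10.9% of 32851 windows of this length in the table, and in at least 1 window of 12.4% of 27025 genes. A match was found for 5 of the 6 genes, all but Tnf. The 4 sequences here are the 200 bases before the start, 5′ to 3′ on the gene's strand, with every base of a match in capitals. They are shown because 2 of them belong to the feedback inhibitors, 1 to a subunit and 1 to a cytokine. The feedback inhibitors gave the highest Pearson r among pairs of the measured genes of this set.
Nfkbia: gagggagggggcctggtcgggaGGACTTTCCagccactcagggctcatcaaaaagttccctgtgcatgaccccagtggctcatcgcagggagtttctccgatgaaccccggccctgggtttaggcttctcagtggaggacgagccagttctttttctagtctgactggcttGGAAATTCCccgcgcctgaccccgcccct
Tnfaip3: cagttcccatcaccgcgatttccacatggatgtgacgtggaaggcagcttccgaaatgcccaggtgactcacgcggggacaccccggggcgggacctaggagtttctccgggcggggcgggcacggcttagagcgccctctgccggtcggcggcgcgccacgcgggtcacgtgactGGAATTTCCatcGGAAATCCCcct
Nfkb2: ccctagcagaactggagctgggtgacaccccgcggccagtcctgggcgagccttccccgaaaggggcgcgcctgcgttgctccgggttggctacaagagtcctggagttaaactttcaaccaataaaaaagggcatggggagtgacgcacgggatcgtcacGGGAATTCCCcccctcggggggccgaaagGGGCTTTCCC
Il6: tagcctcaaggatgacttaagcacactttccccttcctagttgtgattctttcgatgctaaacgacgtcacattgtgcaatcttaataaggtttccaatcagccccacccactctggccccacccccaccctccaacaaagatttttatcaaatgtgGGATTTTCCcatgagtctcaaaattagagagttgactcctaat
The Nfkbia stretch is chr12:55492648-55492847 on the minus strand, with matches whose first bases lie at -178 and -29, counted from the annotated start. The Tnfaip3 stretch is chr10:19015411-19015610 on the minus strand, with matches at -24 and -12 in the first of its 2 windows. The Nfkb2 stretch is chr19:46304537-46304736 on the plus strand, from the first of 3 windows, and its capitals hold 4 matches in 2 overlapping pairs, at -39 and -38 and at -10 and -9. The Il6 stretch is chr5:30012914-30013113 on the plus strand, with 1 match at -43. A match is a stretch of letters and says nothing about binding in these tumors.

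Tnf, the cytokine that both activates NF-kB and is made under its control, had its highest group mean in the combination tumors. Its 5 arrays read 8.76, 8.74, 8.31, 8.14 and 8.36 with eGFP, a mean of 8.46 ± 0.27 (SD, n = 5). They read 8.40, 8.29, 8.13, 8.25 and 8.84 with IFNbeta (8.38 ± 0.27) and 8.20, 8.42, 8.37, 8.68 and 7.99 with p19Arf (8.33 ± 0.26). With p19Arf and IFNbeta together they read 9.14, 8.70, 8.68, 8.91 and 8.33 (8.75 ± 0.30). The 4 groups overlapped, and 2 of the 5 combination arrays lay above every eGFP array. The combination mean was 0.29 above eGFP (SE 0.16), with an adjusted p of 0.348 by limma with Benjamini-Hochberg adjustment over all genes. Without the combination array at 9.14 the Tnf difference was 0.19.

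Il6, a cytokine of the acute phase response, gave low values everywhere, between 4.78 and 5.67. Its group means were 5.24 ± 0.27 with eGFP, 5.36 ± 0.29 with IFNbeta, 5.02 ± 0.36 with p19Arf and 5.27 ± 0.27 with both (SD, n = 5 each). All values lie below the array medians, all groups overlapped, and the difference of the combination from eGFP was 0.03 (95% interval -0.33 to 0.38). Whether this probe set was above background could not be read from the table.

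Osm, oncostatin M, an IL-6 family cytokine made mainly by myeloid cells, had a higher mean in each treated group than with eGFP. The eGFP arrays read 9.07, 8.35, 8.35, 8.32 and 8.47 (8.51 ± 0.32) and the IFNbeta arrays 8.50, 8.83, 9.23, 8.78 and 8.94 (8.85 ± 0.26). The p19Arf arrays read 8.66, 9.34, 8.58, 8.81 and 8.38 (8.75 ± 0.36), and the combination arrays 8.83, 8.90, 8.95, 9.93 and 8.92 (9.11 ± 0.46). All 5 combination arrays lay above 4 of the 5 eGFP arrays, and 1 eGFP array at 9.07 lay above 4 of the 5 combination arrays. The difference of 0.59 (SE 0.20) had an unadjusted p of 0.00751 and an adjusted p of 0.234 by limma, and an exact 2-sided permutation p of 0.0397. The combination array at 9.93 set much of its size: without it the difference in Osm was 0.39, and with the array SD as covariate 0.34.

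Ptgs2, cyclooxygenase 2, the inducible enzyme of prostaglandin synthesis, spread the most of the 9 genes, from 9.50 to 11.20. The eGFP arrays read 10.22, 10.46, 9.96, 10.12 and 10.72 (10.30 ± 0.30), and the IFNbeta arrays 10.38, 10.37, 10.41, 10.63 and 10.97 (10.55 ± 0.26). The p19Arf arrays read 10.19, 10.20, 9.96, 10.06 and 9.50 (9.98 ± 0.29), and the combination arrays 10.69, 10.60, 10.01, 11.20 and 9.99 (10.50 ± 0.51). All 5 IFNbeta arrays lay above all 5 p19Arf arrays, while the combination spanned both. The difference of IFNbeta from p19Arf was 0.57 (SE 0.20), with an unadjusted p of 0.0088 and an adjusted p of 0.201 by limma; the exact permutation p of 0.00794 is the smallest that 5 against 5 arrays can give. Against eGFP the differences were 0.25 with IFNbeta, -0.32 with p19Arf and 0.20 with both, none past the test, and the last was 0.02 without the combination array at 11.20 and 0.34 after quantile normalization.

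Nfkbia, which encodes IkB alpha, the inhibitor that NF-kB itself induces, had group means within a narrow span. Its means were 11.30 ± 0.11 with eGFP, 11.32 ± 0.14 with IFNbeta, 11.33 ± 0.18 with p19Arf and 11.47 ± 0.20 with both (SD, n = 5 each), over a full range of 11.05 to 11.81. The highest value belonged to the combination array that was also highest for Osm and Ptgs2. The combination differed from eGFP by 0.18 (95% interval -0.04 to 0.40). This Nfkbia difference was 0.35 after quantile normalization (unadjusted p of 0.0151 in limma) and 0.10 without the array at 11.81.

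Nfkbiz, which encodes IkB zeta, a nuclear regulator that switches on a second wave of targets, showed the clearest separation from the control vector. Its eGFP arrays read 9.84, 9.60, 9.59, 9.54 and 9.59 (9.63 ± 0.12), and its combination arrays 10.05, 9.85, 10.14, 10.35 and 10.22 (10.12 ± 0.19). All 5 combination arrays lay above all 5 eGFP arrays, the closest pair being 9.85 and 9.84. The means of the single vectors lay between, with arrays at 9.68, 9.65, 10.25, 9.69 and 9.77 for IFNbeta (9.81 ± 0.25) and 9.57, 10.34, 9.87, 9.65 and 9.53 for p19Arf (9.79 ± 0.34). In each of these groups 1 array stood above the other 4. Arrays of both single vectors overlapped eGFP and the combination, and the p19Arf array at 9.53 lay below every eGFP array. The combination exceeded eGFP by 0.49 (SE 0.14, 95% interval 0.20 to 0.78), with an unadjusted p of 0.00216, an adjusted p of 0.234 by limma and an exact permutation p of 0.00794. Leaving out any single array kept the Nfkbiz difference between 0.43 and 0.56, and the array SD as covariate gave 0.32. Weighting arrays by their estimated quality moved its adjusted p by limma to 0.0488, in a fit where 166 of 19938 genes passed. This was the only setting tried that took a member past the threshold in the comparison with eGFP.

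Tnfaip3, which encodes A20, the ubiquitin-editing enzyme that shuts signalling down, was tight in the eGFP tumors and wide elsewhere. The eGFP arrays lay between 8.63 and 8.80 (8.70 ± 0.07, SD, n = 5). The means were 8.85 ± 0.14 with IFNbeta, 8.73 ± 0.30 with p19Arf and 8.96 ± 0.26 with both, and 3 of the 5 combination arrays lay above every eGFP array. The combination differed from eGFP by 0.26 (95% interval -0.01 to 0.52), with an adjusted p of 0.299 by limma. The p19Arf arrays for Tnfaip3 read 8.87, 9.03, 8.89, 8.62 and 8.27, so that group held both a high array and the lowest of all 20.

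Of the subunits, Nfkb2, the p100 precursor of the alternative pathway, read 10.04, 9.99, 9.78, 9.62 and 9.89 with eGFP (9.86 ± 0.17) and 10.03, 9.89, 10.22, 10.21 and 10.20 with the combination (10.11 ± 0.14). In the combination 3 of the 5 arrays lay above every eGFP array. The difference of 0.24 (SE 0.11) had an unadjusted p of 0.0357 and an adjusted p of 0.26 by limma, and an exact permutation p of 0.0476; it was 0.18 with the array SD as covariate and 0.37 after quantile normalization. Nfkb2 means with the single vectors were 9.90 ± 0.12 for IFNbeta and 10.02 ± 0.23 for p19Arf. Relb, the partner of the processed form of Nfkb2, had means of 8.69 ± 0.07 with eGFP, 8.69 ± 0.15 with IFNbeta, 8.70 ± 0.29 with p19Arf and 8.80 ± 0.23 with both. Its combination arrays overlapped those of eGFP, with a difference of 0.11 (95% interval -0.15 to 0.36), which was 0.02 without the combination array at 9.14.

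**Figure D1:**
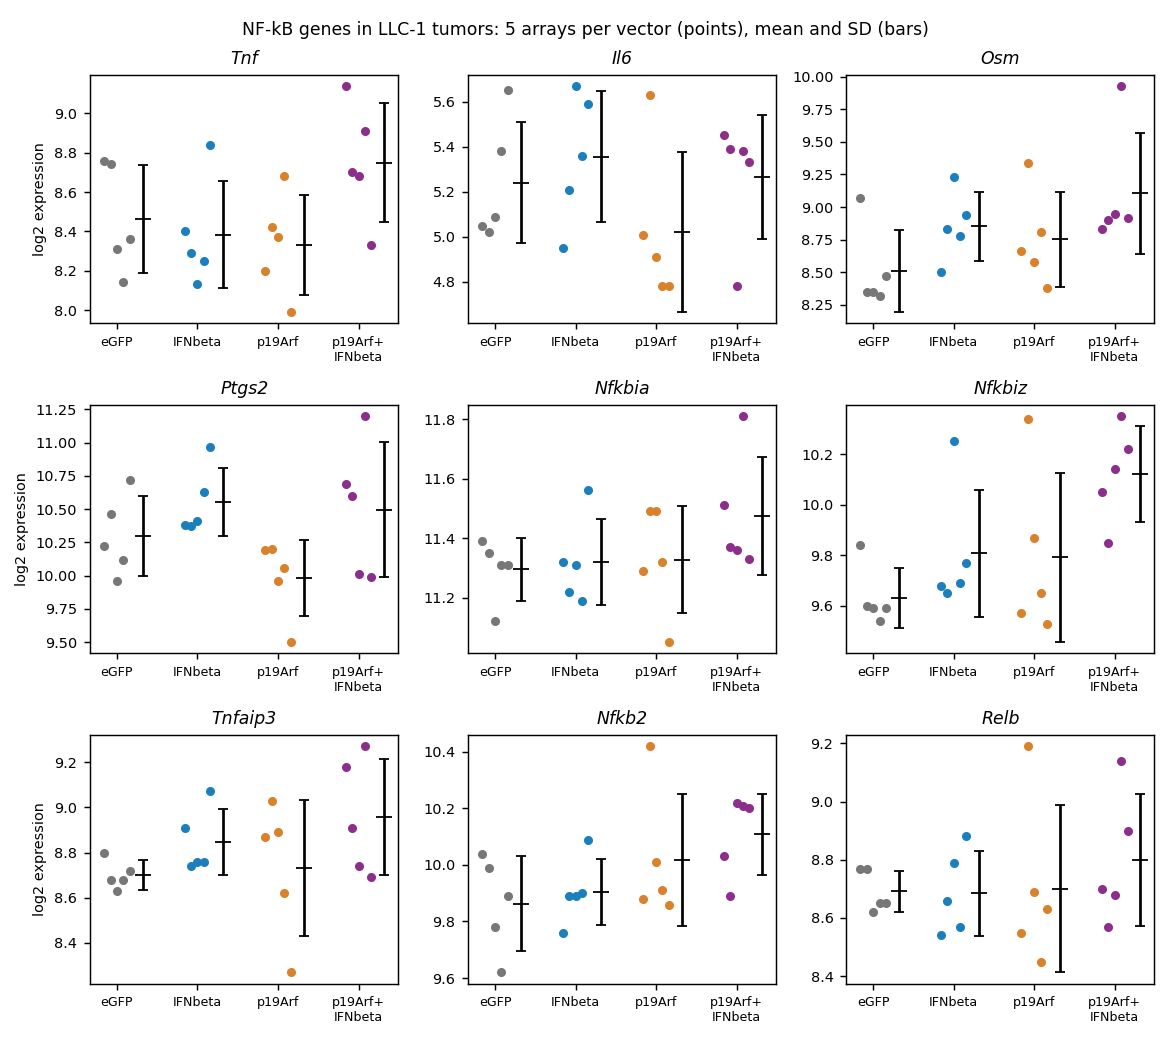
Deposited log2 expression of the 9 measured genes (1 panel each, vertical scales differ) in the 4 vector groups; each point is 1 array and the bar beside it is the group mean with its SD (n = 5). The combination arrays of Nfkbiz all lie above the eGFP arrays, the IFNbeta arrays of Ptgs2 all lie above the p19Arf arrays, and 1 combination array is the highest of its group for Osm, Ptgs2, Nfkbia, Nfkbiz, Tnfaip3 and Relb.

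The combination was first compared with eGFP over the 9 genes together. All 9 genes had a higher mean in the combination, with a median difference of 0.24, where the median over all 19938 genes was 0.02. None of the 9 passed an adjusted p of 0.05 by limma, and neither did any gene on the array (0% called). At an unadjusted p under 0.05, 3 of 9 were higher, namely Osm, Nfkbiz and Nfkb2, against 6.18% of all genes, and none was lower, against 11.4%. One of the 9, Nfkbiz, had its arrays wholly above those of eGFP, against 0.782% of all genes. Without the combination array 4 that was highest for Osm, 8 of 9 were higher, with a median of 0.18, and 2 of 9 were under 0.05 unadjusted. Quantile normalization gave 8 of 9 higher and 5 of 9 under 0.05, and the array SD as covariate gave 9 of 9 and 1. The shares of all genes above belong to the unaltered fit. None stands beside these alternative counts, which therefore do not show whether the members or the background moved. Of the 9 differences, those of Il6 and Relb changed sign under some alternatives, to -0.03 and -0.04 at the lowest. These 9 genes move together across arrays, so they are not 9 independent counts. The members and lists were chosen with earlier results of these data known. Counts set against the shares of all genes, here and below, therefore describe the lists and are not a test. The share of all genes with a higher mean is not given for any comparison, so counts of higher means have no such background.

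The single vectors gave smaller median shifts against the same eGFP arrays, which all comparisons with the control share. Ptgs2 and Il6 differed more from eGFP with the single vectors than with both. For Ptgs2 the differences were 0.25 with IFNbeta, -0.32 with p19Arf and 0.20 with both. For Il6 they were 0.12, -0.22 and 0.03. With IFNbeta 7 of 9 had a higher mean, the median was 0.12, and none was under an unadjusted p of 0.05 (1.34% of all genes were, in the higher direction, and 1.45% in the lower; 0% passed adjustment). With p19Arf 6 of 9 had a higher mean, the median was 0.03, and none was under 0.05 (2.84% of all genes higher, 4.40% lower, 0% after adjustment). The 95% interval of Osm with IFNbeta ran from -0.08 to 0.76 and that of Nfkbiz from -0.12 to 0.47, so differences near those of the combination lie inside or close to them.

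**Figure D2:**
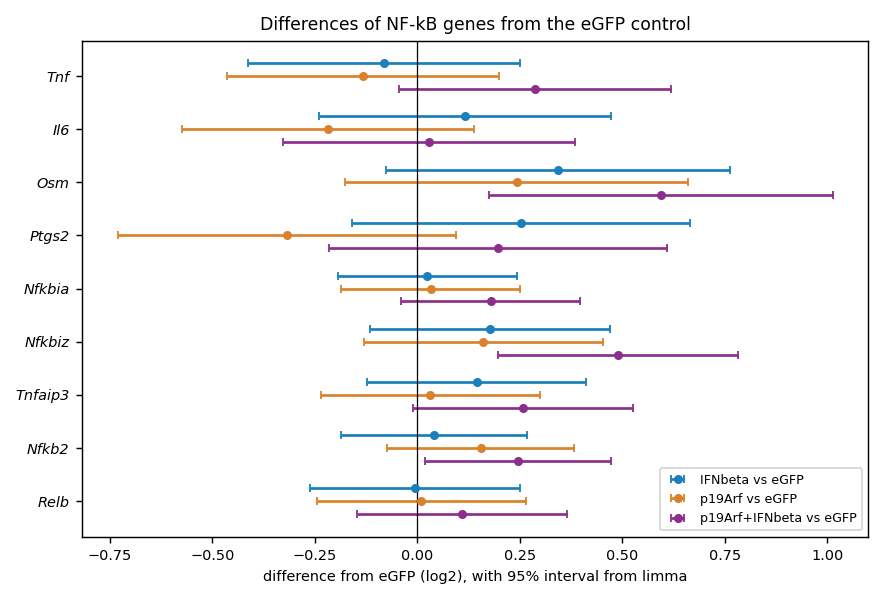
Difference of each vector group from eGFP for the 9 genes, in log2 units, with 95% intervals from limma over all 20 arrays; the 3 comparisons share the eGFP arrays. The intervals of the combination exclude 0 for Osm, Nfkbiz and Nfkb2, and those of IFNbeta and of p19Arf alone include it for all 9 genes.

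The combination was also compared with each single vector. Against IFNbeta alone, Tnf was higher by 0.37 (SE 0.16, unadjusted p of 0.0315 in limma) and Nfkbiz by 0.31 (SE 0.14, 0.0371), so 2 of 9 were under 0.05 where 11.8% of all genes were, in the same direction; 0% passed adjustment. Against p19Arf alone, 9 of 9 had a higher mean, with a median of 0.24, and 3 were under 0.05: Ptgs2 by 0.52 (SE 0.20), Tnf by 0.42 (SE 0.16) and Nfkbiz by 0.33 (SE 0.14), against 1.83% of all genes. None passed adjustment there either (0% of genes; the smallest adjusted p among the 9 was 0.998 in limma). This last count rests on single arrays, from 0 of 9 without p19Arf array 5, the array lowest for 6 of the genes, to 7 of 9 without p19Arf array 2. The share of all genes in those fits is not given here. The comparison of IFNbeta with p19Arf gave Ptgs2 alone under 0.05, 1 of 9 against 8.48% of all genes, and 1 of 9 with arrays wholly apart against 0.757%; 5 genes, 0.0251%, passed adjustment and none of the 9 was among them.

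The factorial view asked whether each gene differed wherever a transgene was present. With IFNbeta present against absent, 10 arrays each, all 9 had a higher mean and 3 were under 0.05 unadjusted, against 2.77% of all genes: Ptgs2 by 0.38 (SE 0.14), Osm by 0.35 (SE 0.14) and Nfkbiz by 0.25 (SE 0.10). With p19Arf present against absent, 2 of 9 were under 0.05, Nfkbiz by 0.24 and Nfkb2 by 0.18, against 14.8% of all genes, so this count was near the background. The interaction, the part of the combination not given by adding both single differences, was positive for 9 of 9, with a median of 0.12. Only Tnf was under 0.05 unadjusted, at 0.50 (SE 0.23) with a p of 0.0378, against 0.813% of all genes. Its p was above 0.05 in 9 of the 20 fits that left out a single array, up to 0.0836. No gene passed adjustment in any of these 3 contrasts by limma (0% each).

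The wider pathway was read from 106 measured genes of 114 written down, comprising ligands, receptors and adaptors, kinases, subunits, inhibitors, targets and the IL-6 and OSM receptor side. In the combination against eGFP, 70 of 106 had a higher mean, with a median of 0.13; 26 were higher and 10 lower at an unadjusted p under 0.05, against 6.18% and 11.4% of all genes, and none passed adjustment. Over all genes the split of such calls was 1233 higher and 2280 lower, and it moved with the scaling, to 816 and 2621 after median centring and to 1670 and 1882 after quantile normalization; the pathway list gave 22 and 12, then 37 and 8. Targets held most of the higher calls, 14 of 43 higher and 2 lower, with 31 of 43 at a higher mean. Without combination array 4 the pathway gave 17 higher and 7 lower, and its targets 10 and 3. The share of all genes in that fit is not given here.

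Ccl3, a macrophage chemokine, had the smallest p of the pathway, higher by 0.96 (SE 0.21) at 11.72 ± 0.59 against 10.77 ± 0.24, with 4 of 5 combination arrays above every eGFP array. Cxcl3, a neutrophil chemokine, was higher by 0.68 (SE 0.16), and Il1b, the cytokine interleukin 1 beta, by 0.97 (SE 0.24); each of these 3 had an adjusted p of 0.234 by limma. Combination array 4 held the highest value of Ccl3, at 12.55, of Cxcl3, at 9.43, and of Il1b, at 12.22.

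With IFNbeta alone 77 of 106 pathway genes had a higher mean and 4 were higher and none lower at an unadjusted p under 0.05 (4 and 1 after quantile normalization), against 1.34% and 1.45% of all genes. The smallest p belonged to Lcn2, the iron-binding protein lipocalin 2, higher by 0.61 (SE 0.22). Tnfsf10, the death ligand TRAIL, was higher by 0.34 (SE 0.14) and Irak3, an inhibitor of Toll-like receptor signalling, by 0.28 (SE 0.12). With p19Arf alone 47 of 106 had a higher mean. At an unadjusted p under 0.05, 1 was higher and 8 lower, against 2.84% and 4.40% of all genes. After quantile normalization these counts were 4 and 4. Shares of all genes after quantile normalization are not given for either single vector. How many of all genes had a higher mean with either vector is not given here. Rel, the c-Rel subunit, was lower in all 5 p19Arf arrays than in any eGFP array, 8.79 ± 0.27 against 9.19 ± 0.08, a difference of -0.39 (SE 0.12). Nfkbib, which encodes IkB beta, differed by -0.52 (SE 0.18) and the immediate-early nuclear receptor Nr4a1 by -0.29 (SE 0.11). None of these 6 genes passed adjustment by limma.

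Of the prostaglandin genes around Ptgs2, 0 of 16 were higher and 2 lower in the combination at an unadjusted p under 0.05, where 6.18% of all genes were higher and 11.4% lower, so the lower count is at the background. The counts of the next lists are for the same comparison and stand against the same shares. Immediate-early genes, which respond to many stimuli within minutes, had 3 of 23 higher and 1 lower. Cell type markers differed in the same comparison. Neutrophil markers had 7 of 17 higher and none lower, with the marker score, the mean log2 value of the list, at 7.77 to 8.11 in the combination and 7.56 to 7.81 with eGFP. The defining S100a9 and Csf3r were higher by 0.69 and 0.61, while S100a8 differed by -0.06. Macrophage and monocyte markers had none of 17 higher and 4 lower, with scores of 9.60 to 10.34 and 10.04 to 10.34. With the array SD as covariate the macrophage counts became 2 higher and 2 lower, with no share of all genes given for that fit. The part of these cells in the values of the 9 genes was not tested.

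Across the 20 arrays the 9 genes varied together. All 36 pairs had a positive Pearson r, with a median of 0.563, and 22 of 36 had an adjusted permutation p under 0.05 (100000 permutations, Benjamini-Hochberg over the 36 pairs). After the group means were taken out all 36 were still positive, with a median of 0.508. The mean r was then 0.507 over the pairs of these genes. Over all pairs of the 19938 genes the signed mean was 0.01, where positive and negative pairs cancel. That value therefore does not show that varying together is particular to these genes. The genes share arrays, so these pairs are not independent. After quantile normalization 34 of 36 were positive.

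By Pearson r the highest pair was that of the 2 feedback inhibitors, Nfkbia and Tnfaip3, whose promoters are printed above. Their Pearson r was 0.868 (permutation p of 1e-05, the smallest that 100000 permutations can give, adjusted 0.00018) and their Spearman rho 0.738 (permutation p of 0.0003, adjusted 0.0018), and by rho 5 other pairs were higher, led by Tnf with Nfkbia. Within groups r was 0.866, and without the 2 arrays farthest from the median of Nfkbia it was 0.758. Osm and Nfkbiz followed, at r 0.83 and rho 0.856 (each permutation p 1e-05, adjusted 0.00018), with 0.76 within groups and 0.751 without the 2 farthest arrays. Nfkb2 and Relb, partners in the alternative pathway, gave r 0.771 (permutation p 7e-05, adjusted 0.00063) and rho 0.722 (permutation p 0.00042, adjusted 0.00216), with 0.80 within groups and 0.731 without the 2 farthest arrays. Nfkbiz and Relb gave 0.747 (permutation p 0.0002, adjusted 0.00144) and rho 0.656 (permutation p 0.00193, adjusted 0.00772), with 0.806 within groups and 0.538 without 2 arrays.

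Tnf and Ptgs2 had higher r with the feedback inhibitors than with Nfkbiz. Tnf with Nfkbia gave r 0.703 (permutation p 0.00046, adjusted 0.00237) and rho 0.859 (permutation p 1e-05, adjusted 0.00018), with 0.649 within groups and 0.629 without 2 arrays. Ptgs2 with Tnfaip3 gave r 0.747 (permutation p 0.00026, adjusted 0.00156) and rho 0.583 (permutation p 0.00798, adjusted 0.0169), with 0.775 within groups and 0.489 without 2 arrays. Ptgs2 with Nfkbia, at r 0.652 (permutation p 0.00198, adjusted 0.00576) and rho 0.402 (permutation p 0.0803, adjusted 0.116), was 0.761 within groups but 0.285 without 2 arrays, and so rests on those arrays. By contrast Ptgs2 with Nfkbiz gave r 0.242 (permutation p 0.304, adjusted 0.332) and rho 0.238, and Tnf with Nfkbiz 0.334 (permutation p 0.15, adjusted 0.18) and rho 0.477, with only 0.152 and 0.093 within groups. The lowest pair was Tnf with Il6, at r 0.083 (permutation p 0.725) and rho 0.104. Whether these r values differ from one another was not tested.

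**Figure D3:**
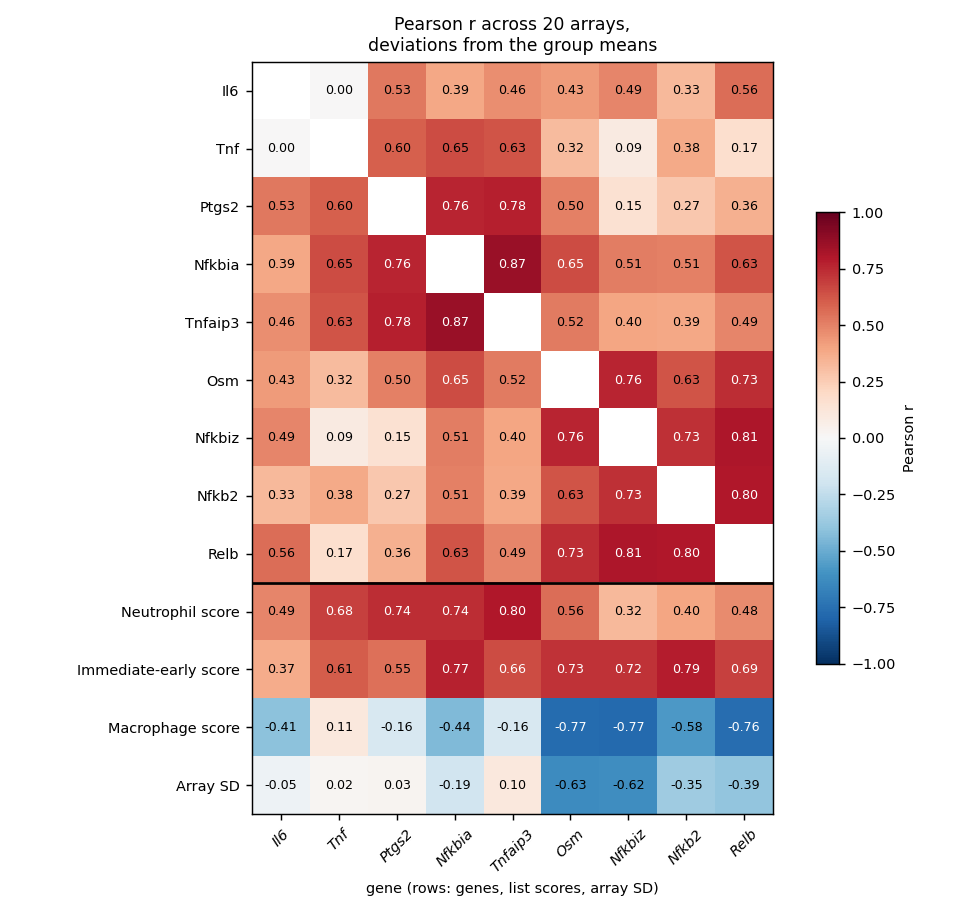
Pearson r over 20 arrays, computed on deviations from the group means, for each pair of the 9 genes (upper block, red for positive, blue for negative) and of each gene with 3 list scores and with the array SD (lower block). Nfkbia and Tnfaip3 share the darkest cell of the upper block at 0.87, and the macrophage score is negative with Osm, Nfkbiz, Nfkb2 and Relb at -0.77, -0.77, -0.58 and -0.76.

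The same genes were set against the array SD and 5 list scores, 54 relations in all, of which 24 had an adjusted permutation p under 0.05. By Pearson r Tnfaip3 followed the neutrophil score most closely, while by rho Nfkbia, Tnf and Nfkb2 were higher. Tnfaip3 gave r 0.833 (permutation p 2e-05, adjusted 0.00108) and rho 0.609 (permutation p 0.005, adjusted 0.0225), with 0.804 within groups and 0.714 without the 2 farthest arrays. Nfkbia gave r 0.788 (permutation p 4e-05, adjusted 0.00108) and rho 0.663 (permutation p 0.00183, adjusted 0.0165), with 0.736 within groups and 0.692 without them. Tnf gave r 0.739 (permutation p 0.00012, adjusted 0.00216) and rho 0.653 (permutation p 0.00257, adjusted 0.018), with 0.682 within groups and 0.57 without them. The other genes were also positive with this score. Osm gave r 0.685, Ptgs2 0.645, Nfkbiz 0.582, Nfkb2 0.54 and Relb 0.511. Their adjusted permutation p values were 0.0041, 0.00872, 0.0191, 0.0358 and 0.0486, and by rho 0.0241, 0.0748, 0.048, 0.0225 and 0.122. Within groups r was 0.556, 0.737, 0.322, 0.395 and 0.476. Il6 gave r 0.416 (permutation p 0.0692, adjusted 0.129). The part of neutrophils in these relations was not tested.

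Relb, Nfkbiz, Osm and Nfkb2 ran against the macrophage score. Relb gave r -0.757 (permutation p 0.0003, adjusted 0.00324) and rho -0.597 (permutation p 0.00666, adjusted 0.0257), with -0.76 within groups and -0.472 without 2 arrays. Nfkbiz gave r -0.725 (permutation p 0.00041, adjusted 0.00344) and rho -0.519 (permutation p 0.0209, adjusted 0.0594), with -0.774 within groups and -0.527 without 2 arrays. Osm gave -0.717 (permutation p 0.00047, adjusted 0.00344) and rho -0.58 (permutation p 0.00796, adjusted 0.0287), with -0.768 within groups and -0.405 without 2 arrays. The 2 arrays left out, combination array 4 and p19Arf array 2, have the lowest macrophage scores, 9.60 and 9.75.

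Of these 4 genes, 3 also ran against the array SD with an adjusted p under 0.05. Nfkbiz gave r -0.636 (permutation p 0.00296, adjusted 0.00999) and rho -0.558 (permutation p 0.0117, adjusted 0.0372), with -0.62 within groups and -0.731 without 2 arrays. Osm gave r -0.61 (permutation p 0.00349, adjusted 0.0105) and rho -0.505 (permutation p 0.024, adjusted 0.0648), with -0.626 within groups and -0.499 without 2 arrays. Nfkb2 gave r -0.52 (permutation p 0.0178, adjusted 0.0418) and rho -0.486 (permutation p 0.0306, adjusted 0.0751), with -0.354 within groups and -0.565 without 2 arrays. For Tnfaip3 the relation with the array SD was r -0.017 (permutation p 0.943, rho 0.012). The part of array quality in the Nfkbiz, Osm and Nfkb2 values was not tested beyond the fits with the array SD given above. The immediate-early score was positive with all 9 genes, from r 0.479 for Il6 (permutation p 0.0326, adjusted 0.0677, rho 0.477) to r 0.725 for Nfkbia (permutation p 0.00024, adjusted 0.00324, rho 0.701), with 0.37 and 0.773 within groups and 0.357 and 0.587 without 2 arrays.

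**Figure D4:**
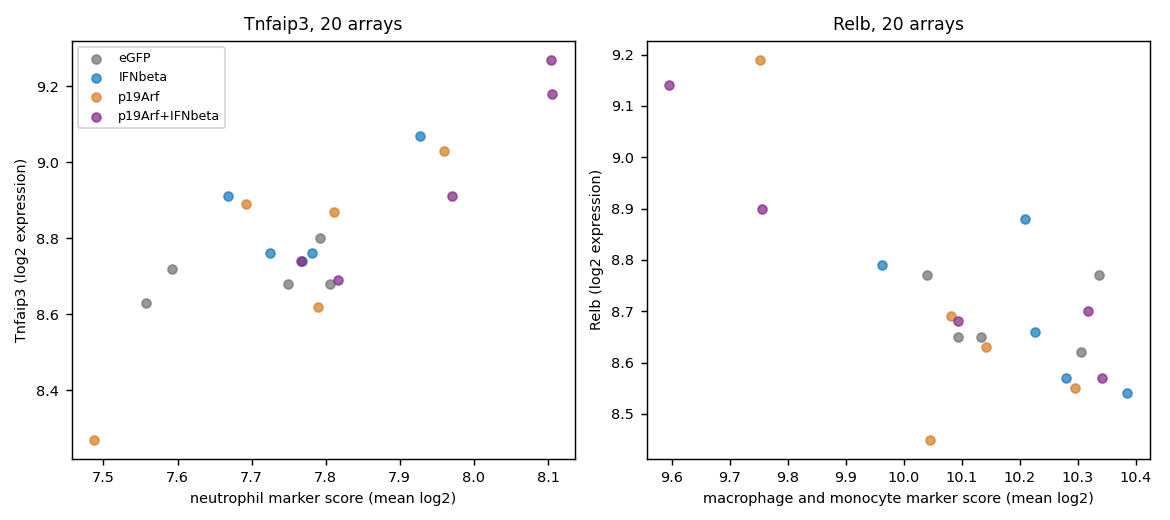
Left, Tnfaip3 against the neutrophil marker score; right, Relb against the macrophage and monocyte marker score, both in log2 units, 1 point per array coloured by vector. Tnfaip3 is higher where the neutrophil score is higher (r 0.833), and Relb is highest in the 2 arrays with the lowest macrophage scores (r -0.757, and -0.472 without those 2).

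The genes nearest to each member, by r over the 20 arrays after the group means were taken out, differed between members. Nfkbia was nearest to Junb, an immediate-early AP-1 factor (0.875), with Tnfaip3, Plaur, the urokinase receptor, Acod1, the itaconate enzyme, and Ms4a20. Tnfaip3 was nearest to Plaur (0.873), with Nfkbia, Junb, Arg2 and Ccl3. Ptgs2 was nearest to Nos2, inducible nitric oxide synthase (0.827), with Il1a, Lipg, Upp1 and Cxcl2. Osm was nearest to Cebpb, a transcription factor of the acute phase and of myeloid cells (0.925), with Rab44, Adam8, Gstt2 and Ier3. For these 4 genes the neighbours include other inflammatory genes.

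Nfkbiz was nearest to Ehbp1l1 (0.963), with Sart3, Inf2, Dhx16 and Hdgfl2, Nfkb2 to Setd1a (0.92), with Hps1, Pus1, Dennd4b and Klhl18, and Relb to Plekhg2 (0.96), with Ap1g2, Clcn6, Arv1 and Denn2b. None of these 15 genes was on the pathway or marker lists. Tnf was nearest to Ifitm1, an interferon-induced membrane protein (0.863), with Them6, Olfr908, Ly6i and Spint1, and Il6 to Gsdmc4 (0.853), with Crnde, Olfr178, Plcxd2 and Foxred1. With 20 arrays and 19938 genes the nearest genes are picked from many, so these r values are descriptions.

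A few arrays held most of the extremes. Combination array 4 was among the 3 highest of 20 for 8 of the 9 genes, p19Arf array 2 for 5 and IFNbeta array 5 for 4. At the other end p19Arf array 5 was among the 3 lowest for 6 genes, eGFP array 3 for 5 and eGFP array 4 for 4. Combination array 4 also had the lowest array SD, 1.99, and the lowest macrophage score, 9.60, and IFNbeta array 3, the highest IFNbeta array for Nfkbiz, had a skin marker score of 9.01 where the next array of its group reached 6.74. The residual SD within groups was 0.36 for Osm and 0.35 for Ptgs2, against a median of 0.19 over all genes, and 0.16 for Nfkbia and 0.17 for Nfkb2.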

How the data were processed

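The authors deposited 1 table of log2 expression values for 35556 probe sets and 20 arrays; the base was read from the range of the values, 2.33 to 14.7. The submitters' processing notes list GCOS and Affymetrix Expression Console, and how probes were summarised, corrected and normalized is not stated in them. The deposited table holds no detection calls, and the number of arrays limits the precision. Of the probe sets, 21789 had 1 gene symbol, 1621 several and 12146 none; the probe set with the highest mean over the 20 arrays stood for each of 19938 genes. Gene names followed the platform annotation and the RefSeq table of GRCm38.p6, by gene identifier.

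Group means were fitted over all 20 arrays with limma 3.58.1 in R 4.3.3 (lmFit, contrasts.fit, eBayes), with Benjamini-Hochberg adjustment over all genes in each of 9 contrasts; the fit was checked on simulated data. Exact permutation tests ran over arrays of 2 groups, and correlations used 100000 permutations, 2-sided. Named were all members, the pathway, prostaglandin or immediate-early genes with arrays apart from eGFP (where fewer than 3 were, the 3 of smallest p), the 5 nearest genes of each member and the first genes of marker lists. The members and lists were chosen with earlier results of these data known. Same-numbered arrays did not deviate together (r from -0.62 to 0.66, 11 of 30 pairs above 0.1), so numbers were not used as pairs. No 2 arrays held identical values.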

Additional observations from a re-analysis of the deposited data

Results flagged for a closer look

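Among 36 sets of 5 arrays (9 genes in 4 groups), 7 had a highest or lowest array that stood apart. Its gap to its neighbour was over 0.71 of the range of the set. For normal values chance gives this in about 1 in 20 sets. The sets share arrays and their genes vary together, so 7 of 36 is a description. Osm had 2 such arrays, eGFP array 1 at 9.07 and combination array 4 at 9.93. Nfkbiz had eGFP array 1 at 9.84 and IFNbeta array 3 at 10.25. Il6 had p19Arf array 2 at 5.63 and combination array 3 at 4.78, the latter the only low one. Nfkb2 had p19Arf array 2 at 10.42. Thus eGFP array 1 and p19Arf array 2 each stood apart for 2 genes; all were kept in the fits.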

How the results depend on the processing

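No difference that was under an unadjusted p of 0.05 changed sign under any alternative; among the others, 80 pairs of a member difference and an alternative changed sign. Array weights, which limma estimates from the data, took members past an adjusted p of 0.05 where the unweighted fit gave 0. Those were 1 in the combination against eGFP, 1 against IFNbeta, 1 in IFNbeta against p19Arf and 2 with p19Arf present. With the same weights 166, 1730, 4495 and 5197 of 19938 genes passed, in the same order, so passing was not particular to the members. The count of members under 0.05 unadjusted moved as follows, without the share of all genes in each setting beside it. Such a change can therefore be one of all genes and not of the members. In IFNbeta against eGFP it went from 0 to 1 with array weights, with the array SD as covariate and with only the groups compared; in p19Arf against eGFP from 0 to 1 with weights and without the 5 arrays of lowest SD. In the combination against eGFP it went from 3 to 5 with quantile normalization and to 1 with the array SD; against IFNbeta from 2 to 0 with median centring, 4 with quantile normalization and 1 with the array SD. In IFNbeta against p19Arf it went from 1 to 2 with centring, weights or without the 5 arrays. With p19Arf present it went from 2 to 1 with centring or without the 5 arrays and 0 with the array SD; with IFNbeta present from 3 to 1 with quantile normalization and 5 without the 5 arrays. The cause was not tested. The replicate block, entered although the numbers did not pair the arrays, gave 1 in place of 2 in the combination against IFNbeta, 1 in place of 5 genes in IFNbeta against p19Arf, and changed none of 81 member calls after adjustment; 3 of 20 arrays were closest to an array of their own number.

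Leaving out 1 array at a time gave 0 to 1 members under 0.05 unadjusted in IFNbeta against eGFP, in p19Arf against eGFP and in the interaction, 2 to 4 in the combination against eGFP, 0 to 3 against IFNbeta and 0 to 7 against p19Arf, 1 to 2 in IFNbeta against p19Arf, 1 to 3 with p19Arf present and 2 to 5 with IFNbeta present. These counts stand without the share of all genes in each fit. After adjustment, leaving out 1 array gave 0 to 1 in the combination against IFNbeta and with p19Arf present. In both cases this was Nfkbiz without IFNbeta array 3 (adjusted p by limma of 0.0456 and 0.0335). In those same fits 2351 and 3892 of 19938 genes passed, so passing was not particular to Nfkbiz. Counts over all genes moved more: array weights gave 5, 166, 1730, 4495, 5197 and 12 genes for IFNbeta against eGFP, combination against eGFP, combination against IFNbeta, IFNbeta against p19Arf, p19Arf present and IFNbeta present, where the unweighted fit gave 0, 0, 0, 5, 0 and 0. Leaving out 1 array gave 0 to 84 in the combination against eGFP (without eGFP array 1), 0 to 2351 against IFNbeta (without IFNbeta array 3), 0 to 28 in IFNbeta against p19Arf and 0 to 3892 with p19Arf present. Only genes above the median level gave 945 with p19Arf present. Alternatives for the counts of higher means and of lists were chosen after seeing the data.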

Other observations

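Skeletal muscle markers differed in the same comparison: all 12 had a higher mean in the combination than with eGFP, with a median difference of 0.92 and 8 of 12 at an unadjusted p under 0.05, none past adjustment by limma. Their score ran from 7.39 to 9.12 in the combination and from 7.28 to 8.01 with eGFP. It ran from 7.32 to 9.49 with IFNbeta alone and from 7.28 to 8.95 with p19Arf alone. The mean scores were 8.40 in the combination, 8.39 with IFNbeta, 8.09 with p19Arf and 7.54 with eGFP. The higher score was thus not particular to the combination. Il6 was the member that went with this score across arrays, at r 0.544 (permutation p 0.0146, adjusted 0.0358 over 54 relations) and rho 0.484 (permutation p 0.0325, adjusted 0.0763), with 0.625 within groups and 0.56 without the 2 farthest arrays. All Il6 values lay below the array medians, and whether its probe set was above background could not be read. For this comparison 6.18% of all genes were higher and 11.4% lower at that threshold. T and NK cell markers had 5 of 14 higher and none lower in the combination, with scores of 7.70 to 8.57 against 7.64 to 7.92. Fibroblast markers had 5 of 10 higher and 2 lower.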
